A study of Homo sapiens with 4 samples.

Results

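The genes described here encode the vesicle and SNARE machinery, and they were taken from the deposited count table by symbol: syntaxins (STX), synaptotagmins (SYT), vesicle-associated membrane proteins (VAMP), syntaxin-binding proteins (STXBP), the SNAP genes SNAP23, SNAP25, SNAP47 and SNAP91, SV2 proteins, synapsins (SYN), complexins (CPLX), UNC13, RIMS and RAB3 proteins, SYP and NSF. The table holds 63 such genes among 24014. SNAP91 shares the symbol stem but was grouped with vesicle recycling proteins and not with the SNAREs. A further 11 genes listed for these families had no entry in it under their symbols and were not analysed here. Their absence is not a measure of no expression. A vesicle fuses with its target membrane when a SNARE on the vesicle (a VAMP) zips together with SNAREs on the target (a syntaxin and a SNAP protein) into a bundle of helices. Syntaxin-binding and UNC13 proteins prepare the bundle, RAB3 and RIMS proteins dock the vesicle, complexins and synaptotagmins couple fusion to calcium, and NSF takes the used bundle apart. Neurons release transmitter with specialised members of these families, while every cell uses other members for traffic between the Golgi apparatus, endosomes and the cell surface.

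To examine what overexpression of the long non-coding RNA AP1AR-DT does to the transcriptome of SK-N-SH, a neuroblastoma cell line of human origin, the study sequenced total RNA of 2 control libraries and 2 AP1AR-DT_OE libraries. Control cells are labelled wild type and were treated with a lentiviral vector without insert, and AP1AR-DT_OE cells with a lentivirus carrying AP1AR-DT, named AC109347.1 in the titles, so that both groups received a lentiviral vector. For AP1AR-DT_OE replicate 2 the title differs from the labels of genotype and treatment, which name AC109347.2, and the title was used. Nothing in the labels says that the libraries came from separate cultures, so the p-values measure the spread between these samples, which may be technical.

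The libraries held 21988065 to 26184599 counts, with 19833 to 21280 genes above 0. AP1AR-DT, listed as RP11-73K9.2 (ENSG00000260526, GRCh38 chromosome 4, 112229561 to 112231596), had 3 and 18 counts in control 1 and 2, and 680 and 1065 in AP1AR-DT_OE 1 and 2. Its Log2FC was 6.63 with an SE of 0.64 (DESeq2 Wald test, Benjamini-Hochberg adjusted p = 3.64e-21), and the edgeR quasi-likelihood test gave an adjusted p of 0.39. Of 10 adrenergic neuroblastoma markers 9 were in the table, 8 of them above the floor of 12 counts in every library, and their summed normalized counts lay between 24895 and 31084. The 10 mesenchymal markers summed to between 126577 and 161526. Of 6 mature neuron markers 5 were in the table and 2 lay above the floor everywhere, with sums of 278 to 335. The 2 astrocyte markers and the 1 epithelial marker in the table lay at or under the floor in at least 1 library, and none of the 4 haematopoietic markers was in the table. None of the markers passed the test. The mesenchymal marker PRRX1 had 2770 and 11358 normalized counts in the 2 control libraries. It had 1241 and 2246 in the AP1AR-DT_OE libraries, below both controls, with a Log2FC of -2.02, an SE of 0.61 and an adjusted p of 0.431 (DESeq2 Wald test, unadjusted p 0.000987). The other mesenchymal markers had Log2FC values from -0.41 (SNAI2) to 0.17 (PRRX2). The part of the markers in the results below was not tested.

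Of the 63 members 59 lay above the floor in at least 1 library, and no member passed the test between the groups. With the DESeq2 Wald test 0 of 63 members had a Benjamini-Hochberg adjusted p under 0.05, against 33 of all 24014 genes, or 0.137%. At an unadjusted p under 0.05 there was 1 member, SYT12, or 1.59%, against 196 genes, or 0.816%. The edgeR quasi-likelihood test also called 0 of the 59 members it kept and 0 of 17027 genes, with 1 member (1.69%) and 112 genes (0.658%) at an unadjusted p under 0.05. A mean of at least 50 normalized counts was reached by 47 members, and their median Log2FC was -0.02, beside -0.02 for the 13298 genes of that level. Of these 47 members 21 had a Log2FC above 0 and 26 below, 37 lay within 0.3 of 0, and the range ran from -0.94 (STXBP3) to 1.48 (SYT12). The test was not able to detect small differences: the SE of a member's Log2FC was 0.43 to 1.43 with a median of 0.55, so that at the median a difference under 2.12-fold lies within the 95% interval around 0. In bulk RNA, fewer cells of a type and less RNA per cell cannot be told apart.

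**Figure D1:**
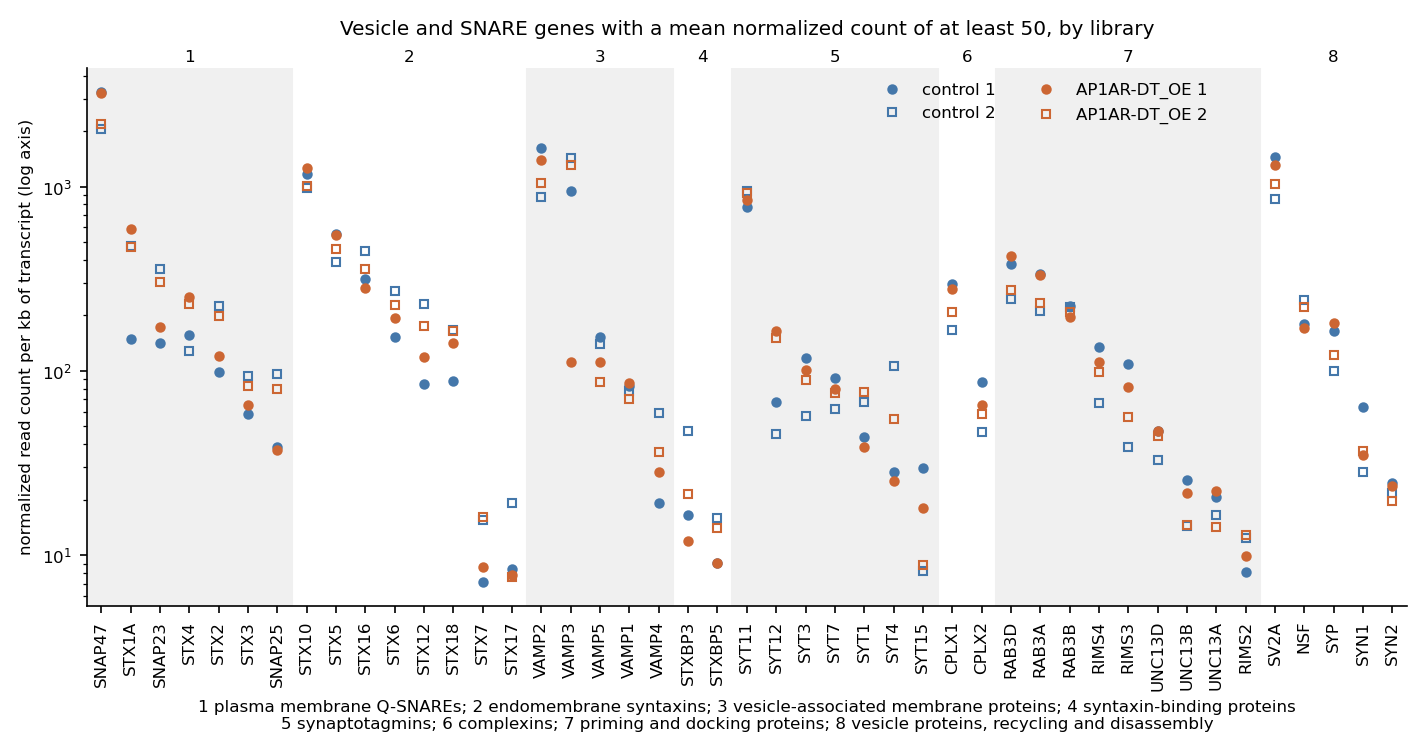
Normalized read count per kb of transcript (log axis) of 45 of the 47 members averaging at least 50 normalized counts, in each of the 4 libraries, grouped by role. Blue marks control and orange AP1AR-DT_OE, circles are libraries numbered 1 and squares libraries numbered 2. SNAP47 stands highest, STX1A has a low point in control 1 and VAMP3 a low point in AP1AR-DT_OE 1.

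The plasma membrane SNAREs, with SNAP47 placed in the same group, were all expressed, and none of the 8 passed the test. Per kb of transcript, the highest of all members was SNAP47, a SNAP25 relative without a membrane anchor, at 2674 normalized counts per kb as a mean over the 4 libraries. Its gene body overlaps JMJD4 and SNAP47-AS1 on the opposite strand, and whether counting used the strand is not stated, so this level is uncertain. SNAP47 had 6237 and 3937 normalized counts in the control libraries and 6173 and 4218 in AP1AR-DT_OE, with a Log2FC of 0.03 and an SE of 0.47. SNAP25, the neuronal partner of syntaxin at the synapse, stood at 63.1 normalized counts per kb and SNAP23, its widely expressed counterpart, at 244. On the opposite strand lie LRRC57 for SNAP23 and SNAP25-AS1 for SNAP25, so their levels and their ratio are uncertain too. The per-kb ratio of SNAP23 to SNAP25 was 3.67 and 3.70 in the control libraries and 4.61 and 3.81 in AP1AR-DT_OE. Both genes were higher in library 2 than in library 1 of each group: SNAP25 had normalized counts of 79.7 and 198 in the control libraries and 76.8 and 164 in AP1AR-DT_OE, and SNAP23 had 329 and 825, and 398 and 703.

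STX1A is a syntaxin of the neuronal plasma membrane. STX1A had 314 and 997 normalized counts in the control libraries and 1242 and 984 in AP1AR-DT_OE. Control 1 stood 3.13-fold under the next lowest library, and the other 3 libraries lay close together. The Log2FC of 0.76 (SE 0.57) became 0.16 without control 1 and 1.83 without control 2, and each of these fits left 1 control library.

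STX4 is the cell surface syntaxin of regulated secretion in many non-neuronal cells. It had 221 and 181 normalized counts in the control libraries and 356 and 324 in AP1AR-DT_OE. Both AP1AR-DT_OE libraries lay above both controls, and the Log2FC was 0.76 with an SE of 0.51 and a 95% interval of -0.24 to 1.76 (DESeq2 Wald test, adjusted p = 1). STX2 and STX3, also syntaxins of the plasma membrane, had Log2FC values of -0.02 (SE 0.56) and -0.04 (SE 0.50).

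Among the 9 endomembrane syntaxins, which serve the Golgi apparatus, endosomes and autophagy, 8 had a mean of at least 50 and none passed the test. STX10, of the trans-Golgi network, was the highest per kb, at 1104 normalized counts per kb, with 1530 and 1280 normalized counts in the control libraries and 1640 and 1307 in AP1AR-DT_OE (Log2FC 0.07, SE 0.45). STX5, which acts between the endoplasmic reticulum and the Golgi apparatus, stood at 487 normalized counts per kb and had a Log2FC of 0.08 (SE 0.47). STX18, of retrograde traffic to the endoplasmic reticulum, had normalized counts of 190 and 362 in the control libraries and 306 and 357 in AP1AR-DT_OE, and its Log2FC of 0.26 (SE 0.54) was -0.13 without control 1 and 0.81 without control 2. STX17, needed for autophagosomes to fuse with lysosomes, had 58.1 and 133 normalized counts in the control libraries and 53.7 and 52.6 in AP1AR-DT_OE. Both AP1AR-DT_OE libraries of STX17 lay below both controls, but control 1 lay close to them: the Log2FC of -0.85 (SE 0.74) was -0.12 without control 2.

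The vesicle-side SNAREs showed the largest difference between libraries of 1 group. VAMP2, the SNARE of synaptic vesicles, and VAMP3, its counterpart on recycling endosomes, were the highest of the 6 VAMP genes, at 1233 and 949 normalized counts per kb. VAMP3 had 2051 and 3117 normalized counts in the control pair, 242 in AP1AR-DT_OE 1 and 2859 in AP1AR-DT_OE 2, from 1801, 4041, 221 and 2880 counts. AP1AR-DT_OE 1 thus stood 8.46-fold under the next lowest library, while AP1AR-DT_OE 2 lay between the controls. The Log2FC of -0.74 had an SE of 1.43, and it was 0.14 without AP1AR-DT_OE 1 and -3.43 without AP1AR-DT_OE 2. Each of these fits left 1 AP1AR-DT_OE library. Having 1 library at least 3-fold under each of the others, as VAMP3 and STX1A did, held for 2 of 47 members and for 240 of 13298 genes, or 1.8%. The depth of AP1AR-DT_OE 1 was like that of the others, and the cause of the low value was not tested.

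VAMP2 had 3434 and 1864 normalized counts in the control libraries and 2971 and 2219 in AP1AR-DT_OE, and its exons share same-strand sequence with RP11-599B13.6. Its Log2FC was -0.03 (SE 0.48), and -0.06 with the counts of VAMP2, RP11-599B13.6 and PER1 summed. PER1 entered this sum through RP11-599B13.6 and not by overlap with VAMP2. The per-kb ratio of VAMP2 to VAMP3 was 12.6 in AP1AR-DT_OE 1 and between 0.613 and 1.72 in the other libraries. VAMP5, found mainly at the plasma membrane of muscle and other cells, had 101 and 92.6 normalized counts in the control libraries and 73.5 and 57.6 in AP1AR-DT_OE. Both AP1AR-DT_OE libraries lay below both controls for VAMP5, at a Log2FC of -0.57 with an SE of 0.67. All 5 VAMP genes with a mean of at least 50 had a Log2FC below 0, from -0.74 to -0.03, and none passed the test. The sign held under every alternative for VAMP5 only. VAMP4 was at 0.038 after the GC correction, and with 1 library left out VAMP1 reached 0.086, VAMP2 0.48, VAMP3 0.14 and VAMP4 0.76.

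None of the 5 syntaxin-binding proteins passed the test, and 3 had a mean of at least 50. STXBP3, the partner of STX4, had 41.0 and 118 normalized counts in the control libraries and 29.6 and 53.6 in AP1AR-DT_OE. Its Log2FC was the lowest of the 47, at -0.94 with an SE of 0.83, and the groups overlapped. Without control 2 the Log2FC of STXBP3 was 0.03.

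Synaptotagmins sense calcium or, in members that lack the calcium-binding residues, act in other steps of vesicle traffic. Among the 14 listed, 7 had a mean of at least 50 and 3, SYT2, SYT6 and SYT13, did not exceed the floor of 12 counts, so that no fold is given for them. SYT11, a member that does not bind calcium, stood highest at 868 normalized counts per kb, with 4010 and 4874 normalized counts in the control libraries and 4358 and 4754 in AP1AR-DT_OE (Log2FC 0.04, SE 0.43). SYT1, the calcium sensor of fast transmitter release, was lower: the SYT11 to SYT1 ratio per kb lay between 11.9 and 21.9 over the 4 libraries.

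SYT12, a synaptotagmin of synaptic vesicles that does not bind calcium, had the largest difference among the 47 members with a mean of at least 50 (ENSG00000173227, GRCh38 chromosome 11, 67006778 to 67050863). It had 222 and 220 counts in the control libraries and 555 and 569 in AP1AR-DT_OE, or 253 and 170, and 609 and 565, after normalization. The 2 AP1AR-DT_OE libraries lay close together and both stood above both controls, at 587 ± 31.1 against 211 ± 58.8 normalized counts (mean ± SD, n = 2 libraries per group). The Log2FC was 1.48 with an SE of 0.50 and a 95% interval of 0.50 to 2.45, a 2.78-fold higher level. Within the libraries of 1 number the log2 ratio was 1.27 for number 1 and 1.74 for number 2. The difference had an unadjusted p of 0.00307 and an adjusted p of 1 (DESeq2 Wald test, Benjamini-Hochberg over all genes), so it did not pass the threshold. With the libraries corrected for GC content the Log2FC was 1.44 and the adjusted p 0.00164 (DESeq2 Wald test). This is to be read with the excess of false calls that simulated data of this size gave with DESeq2 without the correction. No other gene of those counted here overlaps SYT12 in the annotation. Genes that were not counted were not checked. Over all alternatives the adjusted p ranged from 0.00105 to 1, and with 1 library left out the Log2FC ran from 1.23 to 1.79.

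SYT4, a synaptotagmin of dense-core vesicles and the Golgi apparatus, had 112 and 420 normalized counts in the control libraries and 99.8 and 216 in AP1AR-DT_OE. The groups overlapped and control 2 stood apart: the Log2FC of -0.75 (SE 0.70) was 0.51 without it. The remaining synaptotagmins with a mean of at least 50, SYT1, SYT3, SYT7 and SYT15, had Log2FC values from -0.50 to 0.13.

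**Figure D2:**
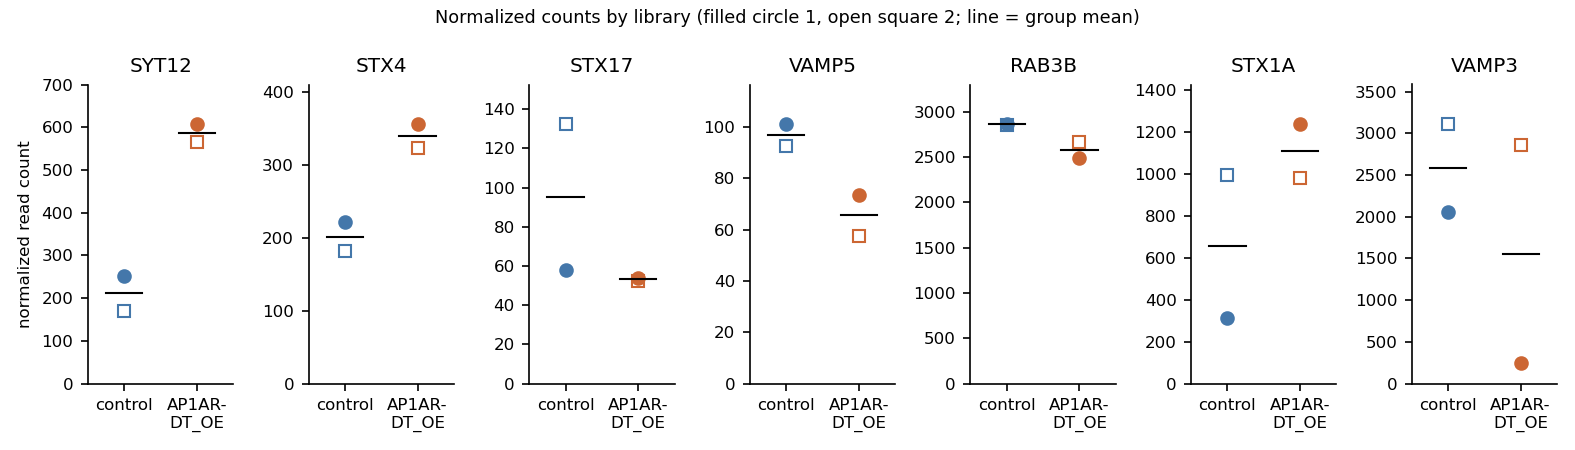
Normalized read counts of the 5 members whose groups did not overlap at a mean of at least 50 (SYT12, STX4, STX17, VAMP5, RAB3B) and of STX1A and VAMP3, by library, each panel with its own axis from 0. Filled circles are libraries numbered 1, open squares libraries numbered 2, and the line is the mean of the group. The single low library, control 1 for STX1A and AP1AR-DT_OE 1 for VAMP3, is seen below the others.

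Both complexins, which bind the assembled SNARE bundle, lay close to 0 in difference. CPLX1 had 629 and 354 normalized counts in the control libraries and 586 and 439 in AP1AR-DT_OE (Log2FC 0.06, SE 0.51), and CPLX2 had 399 and 215, and 299 and 270 (Log2FC -0.11, SE 0.54). The CPLX1 to CPLX2 ratio per kb lay between 3.43 and 4.26. Control 1 held the highest value for both genes and control 2 the lowest.

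Of the 11 priming and docking proteins, 9 had a mean of at least 50, and all 9 had a Log2FC within 0.3 of 0. RAB3D, a RAB3 protein of secretory granules, and RAB3A, the main RAB3 of synaptic vesicles, stood at 331 and 278 normalized counts per kb, with Log2FC values of 0.15 (SE 0.48) and 0.06 (SE 0.51). Exons of RAB3D share sequence with TMEM205 and CTC-510F12.4 on the same strand, and with the counts summed the Log2FC was 0.15. RAB3B, chosen after its values were seen, had 2868 and 2851 normalized counts in the control libraries and 2491 and 2664 in AP1AR-DT_OE. Both AP1AR-DT_OE libraries lay below both controls for RAB3B, by a Log2FC of -0.15 with an SE of 0.43. UNC13D, which primes secretory granules in blood cells, had 192 and 134 normalized counts in the control libraries and 193 and 182 in AP1AR-DT_OE (Log2FC 0.20, SE 0.56).

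Vesicle membrane proteins were led by SV2A, a glycoprotein of synaptic vesicles and the target of the antiepileptic levetiracetam. SV2A stood at 1159 normalized counts per kb, with 6301 and 3764 normalized counts in the control libraries and 5696 and 4539 in AP1AR-DT_OE (Log2FC 0.02, SE 0.46). SV2C had 17.6 to 40.9 normalized counts, and the per-kb ratio of SV2A to SV2C lay between 228 and 802. NSF had 716 and 963 normalized counts in the control libraries and 679 and 879 in AP1AR-DT_OE (Log2FC -0.11, SE 0.47). SYN3 did not exceed the floor in any library. Among the others with a mean of at least 50, SYP, SYN1 and SYN2, chosen after their values were seen, the Log2FC was 0.20, -0.35 and -0.10.

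In order of level, 59 of the 62 pairs of neighbouring ranks among the 63 members had overlapping ranges over the 4 libraries. A gap without overlap lay between SNAP47 and VAMP2 at the top and between SYT17 and SV2C near the bottom. The per-kb levels use 1 transcript per gene and counts for the whole gene, so they are approximate.

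Groups did not overlap in 5 of the 47 members with a mean of at least 50: SYT12 and STX4 stood above both controls, and STX17, VAMP5 and RAB3B stood below. Of 13298 genes 1257 did so, or 9.45%, with 5.11% above and 4.35% below, so the count of members is close to the background. Exon overlap on the same strand was found for 6 members, RAB3D, STX16, SNAP25, STX6, STX3 and VAMP2, against 9.04% of all genes, and none of them passed the test with the counts summed.

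**Figure D3:**
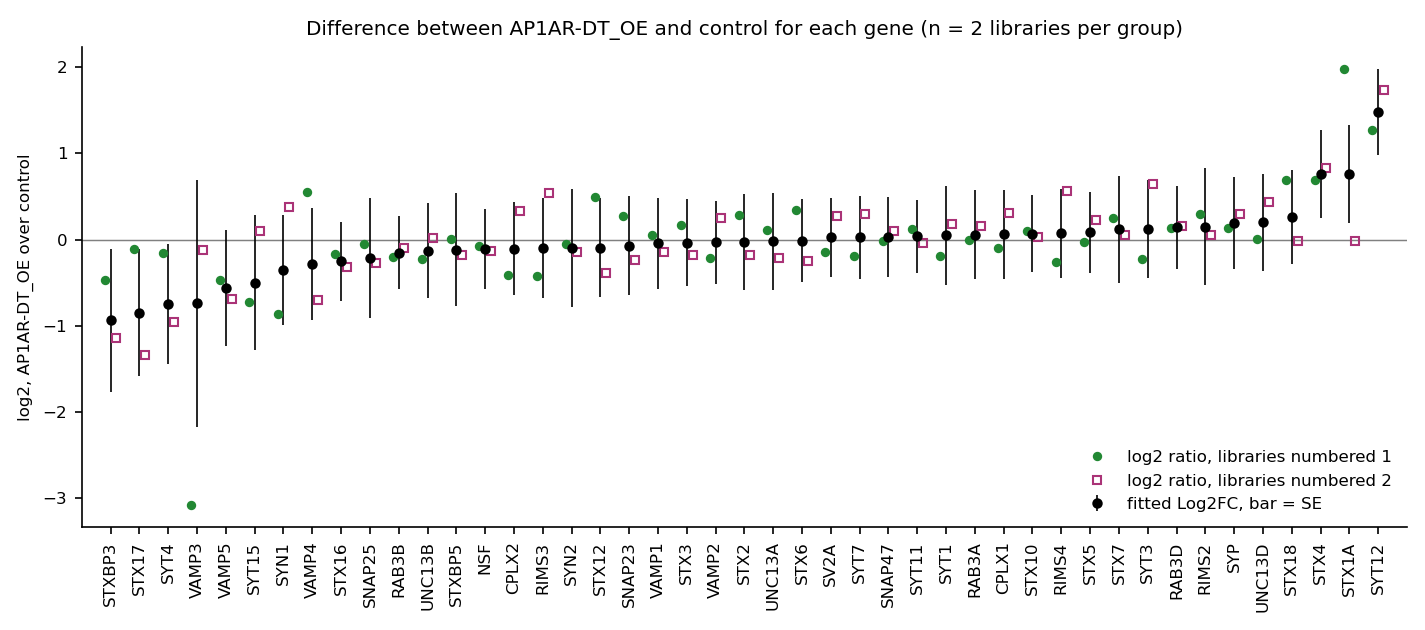
Fitted Log2FC between AP1AR-DT_OE and control for 45 of the 47 members with a mean of at least 50 (black, bars are SE), beside the log2 ratio of the 2 libraries numbered 1 (filled circles) and of the 2 numbered 2 (open squares). SYT12 stands apart at 1.48, and VAMP3 and STX1A have a wide gap between the 2 ratios.

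Libraries of the same group differed, and the difference moved with the GC content of the transcript. The log2 ratio of control 2 to control 1 and the GC content had a Spearman rho of -0.70 over the 47 members, and AP1AR-DT_OE 2 to AP1AR-DT_OE 1 gave -0.64. Over all 13284 genes of that level with a GC value the values were -0.78 and -0.66. Of 25 members with at least 50% GC, 24 were lower in control 2 than in control 1, with a median log2 ratio of -0.63, and STX1A was the exception. Of 22 members under 50% GC, 19 were higher in control 2, with a median of 0.82. The ratio of AP1AR-DT_OE to control had a rho of -0.12 in the libraries numbered 1 and 0.71 in those numbered 2. The median Log2FC was 0.06 in the first class and -0.11 in the second. These rhos are across genes of the same 4 libraries, which are not independent replicates, and are given as a description. With each library corrected for GC content, 1 member, SYT12, was called by DESeq2, against 57 of all genes, or 0.237%.

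**Figure D4:**
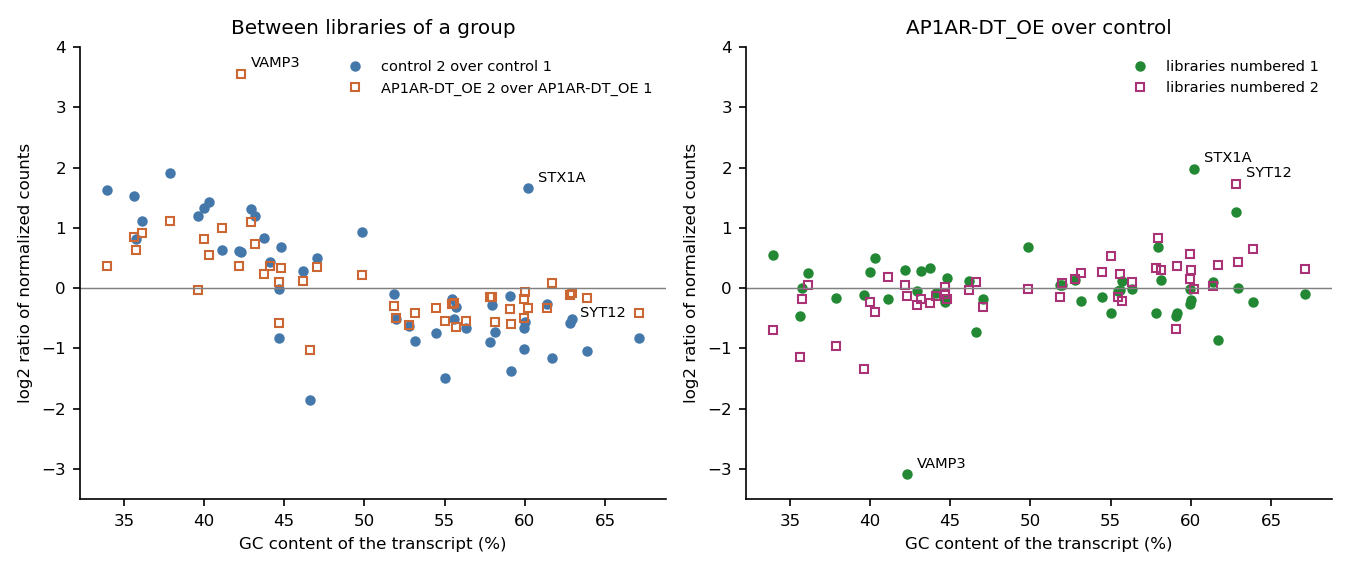
Log2 ratio of normalized counts between libraries against GC content of the transcript for the 47 members, with the 2 libraries of a group on the left and AP1AR-DT_OE over control on the right, by library number. On the left most points lie above 0 under 50% GC and below 0 above it, with VAMP3 and STX1A apart from the rest, and SYT12 lies above 0 in both ratios on the right.

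A wider list of vesicle genes, such as the SNAP adaptors of NSF, the dynamins and the secretory carrier proteins, was looked at in the same way. Of 93 genes listed 85 were in the table, 0 were called by the DESeq2 Wald test or by edgeR, and 0 had an unadjusted p under 0.05 by DESeq2. At a mean of at least 50 there were 67, with a median Log2FC of -0.01 and a range from -0.66 to 1.20. The highest was SCAMP5, a secretory carrier protein of synaptic vesicles, chosen after its values were seen, with 338 and 1537 normalized counts in the control libraries and 2600 and 1723 in AP1AR-DT_OE. Both AP1AR-DT_OE libraries of SCAMP5 lay above both controls (Log2FC 1.20, SE 0.62, unadjusted p 0.0539, DESeq2), and control 1 stood apart as for STX1A. The Log2FC of SCAMP5 was 0.49 without control 1 and 2.69 without control 2, and each of these fits left 1 control library. NAPG, an adaptor of NSF chosen in the same way, had 102 and 67.1 normalized counts in the control libraries and 131 and 254 in AP1AR-DT_OE (Log2FC 1.19, SE 0.63). PRRT2, which regulates SNARE assembly at the synapse, had 711 and 430 normalized counts in the control libraries and 571 and 442 in AP1AR-DT_OE (Log2FC -0.17, SE 0.50), and its gene body overlaps AC009133.14 on the opposite strand.

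Promoter sequence was examined because the study addressed the transcription factor NRF1, which binds a GC-rich palindrome. The motif searched was GCGC, then A, any base and GCGC again (10 letters in all). Only exact matches were counted. The NRF1 motifs that the paper predicted in the NEGR1 promoter hold no exact match, so the search would have missed them. Both strands were searched in the RefSeq window from 250 bases before to 50 bases after each transcription start of GRCh38.p14. Of the 63 members 49 matched the table by symbol, with 73 windows, while STX17, SYT13, SYT7, RIMS2, STXBP4, SYT12, SNAP25, CPLX1, SYN3, UNC13D, SYT17 and RIMS4 were among those without an entry. The motif was found in 4 of 73 windows, or 5.48%, and in 2031 of 35116 windows of all genes, or 5.78%. Counted by gene this was 4 of 49, or 8.16%, and 1905 of 27305, or 6.98%. The 4 sequences are shown 5′ to 3′ on the strand of the gene, with the 50 bases before the motif in lower case and the motif in capitals.
STX12 (chr1:27773067-27773126, plus strand): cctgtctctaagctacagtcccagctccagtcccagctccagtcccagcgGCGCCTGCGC
SNAP47 (chr1:227735388-227735447, plus strand): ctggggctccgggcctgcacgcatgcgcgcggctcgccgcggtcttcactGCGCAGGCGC
SNAP23 (chr15:42495580-42495639, plus strand): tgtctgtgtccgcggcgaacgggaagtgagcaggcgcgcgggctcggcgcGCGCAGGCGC
SYP (chrX:49200315-49200374, minus strand): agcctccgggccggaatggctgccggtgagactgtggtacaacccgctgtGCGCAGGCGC
In STX12 the motif lies on the opposite strand, from position -102 to -93 relative to the start. In SNAP47 it runs from 4 to 13, in SNAP23 from -4 to 6 and in SYP from -131 to -122. These 4 genes had a Log2FC of -0.10 (STX12), 0.03 (SNAP47), -0.07 (SNAP23) and 0.20 (SYP), and none passed the test. The match of letters is a description and not evidence of binding.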

How the data were processed

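Total RNA of SK-N-SH cells was measured in 2 control and 2 AP1AR-DT_OE libraries, grouped by title. The authors sequenced 150-bp paired-end reads, aligned them to hg19 with HISAT2 and took a count per gene from StringTie output, per the paper's methods, whereas the submitters' processing notes list TopHat2 2.0.4, SAMtools, HTSeq, Cuffdiff and edgeR 2.6.12. The annotation used for counting is not given in the sources used here. The deposited counts are whole numbers without normalization, and the authors' fold changes and p-values in the same table were not used. Coordinates are GRCh38, as the table gives them. Whether counting used the strand is not stated, so counts of overlapping and antisense genes are uncertain. Overlap on the opposite strand is named above for some members only. RAB3D, RAB3A, RAB3B, STX18 and SYN1 are among the others that have it.

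Low values piled at 4 and 8 (3287 entries at 4, against 2136 at 3 and 1509 at 5, and 1342 at 8, against 1108 at 7 and 792 at 9), so a read pair was taken as 4 counts and the floor as 3 pairs, or 12 counts, which covers counting error only.

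All 24014 genes were tested with DESeq2 1.42.0 in R 4.3.3 (median-of-ratios size factors, two-sided Wald test without covariates, Benjamini-Hochberg adjustment), and genes with an adjusted p under 0.05 were called. Summaries were made in Python 3.11.15. GC content and length came from the Ensembl canonical transcript of GENCODE 44 on GRCh37, which matched 23954 genes and all 63 members. Alternatives were edgeR 4.0.16, TMM factors, a filter of 10 counts in 2 libraries, a block on the replicate number, counts divided by 4, a lowess GC correction, summed overlapping genes and each library left out. Libraries were checked for duplicates by chi-square. The main DESeq2 fit, the fit with the block and edgeR were tested on simulated data. They recovered the direction of the larger fold changes but did not call every changed gene. The simulated libraries had no GC trend and no effect of the replicate number. With 2 libraries per group the share of false calls exceeded the nominal level for DESeq2, with and without the block, and for edgeR. An adjusted p here thus overstates the evidence for a call. Named members were the 2 highest per kb of each role, those with an unadjusted p under 0.05, the 5 largest positive and 5 largest negative Log2FC at a mean of at least 50, paralog pairs, and PRRT2. Of the members, 2 are counted but not reported singly here. Other genes named in the text were chosen after their values were seen. The members, lists and rules were chosen with earlier results of these data known.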

Additional observations from a re-analysis of the deposited data

How the results depend on the processing

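Of the values of the 24 named members under settings that keep every library, 183 kept their direction and their side of the threshold, 3 passed it and 6 changed sign. SYT12 was the member called with the replicate block (adjusted p 0.0105, DESeq2), the GC correction (0.00164) and both (0.00105), so the members called were 1, 1 and 1 in place of 0. Leaving out 1 library gave 0 to 1 (VAMP3 without AP1AR-DT_OE replicate 2, STX1A without control replicate 2). Such a group holds 1 library, which is assumed to vary like the others. For all genes the count of 33 became 0 with edgeR, 15 with counts divided by 4, 57 with the GC correction, 60 with that and the block, 14 with overlapping genes summed, and 45 to 90 with 1 library left out. The other vesicle genes called were 0 to 1 with 1 library left out (SCAMP5 without control replicate 2). The median Log2FC of the members, -0.02, was 0.042 with the replicate block, 0.022 with the block and the GC correction, and -0.047 to 0.021 with 1 library left out. AP1AR-DT had 6.60 with edgeR (adjusted p 0.39) and 6.02 to 8.05 with 1 library left out. Signs changed for SNAP47 (-0.0025, GC correction with block), STX10 (-0.014, GC correction), VAMP2 (0.021, block) and SNAP23 (0.016 with the block, 0.090 with the GC correction, 0.093 with both), all near 0. The labels link libraries across the groups only by a replicate number. Deviations of same-numbered libraries from the group means correlated at 0.46 over 13298 genes. Libraries of 1 number were more alike across groups than libraries of 1 group were. The chi-square per degree of freedom was 27.67 for the libraries numbered 1 and 34.63 for those numbered 2. It was 155.4 between the control libraries and 69.03 between the AP1AR-DT_OE libraries. The block moved the count of all genes called from 33 to 37. With 1 library left out, 63 values kept direction and side, 2 passed the threshold and 31 changed sign, and the Log2FC ran as follows for the members affected: SNAP47 -0.28 to 0.40, STX1A 0.16 to 1.83, STX10 -0.11 to 0.21, STX5 -0.14 to 0.36, VAMP2 -0.39 to 0.48, VAMP3 -3.43 to 0.14, STXBP3 -1.51 to 0.033, SYT11 -0.099 to 0.19, CPLX1 -0.29 to 0.53, CPLX2 -0.48 to 0.40, RAB3D -0.20 to 0.49, RAB3A -0.23 to 0.42, SV2A -0.29 to 0.44, NSF -0.32 to 0.13, STX18 -0.13 to 0.81, UNC13D -0.029 to 0.48, SYT4 -1.43 to 0.51, SNAP23 -0.59 to 0.75, SNAP25 -0.88 to 0.61, SV2C -1.07 to 0.12. Differences under about 1.78-fold lay within the 95% interval around 0 for every member with a mean of at least 50.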
